A study of Mus musculus with 10 samples.

Results

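Of the 22553 genes in a count table of regulatory T cell (Treg) RNA, 10 are described here: the S100 genes S100a4, S100a6, S100a10, S100a11, S100a13 and S100a1, the annexins Anxa1 and Anxa2, and the galectins Lgals1 and Lgals3. They were picked by name from 3 protein families that activated T cells are known to express, with their difference between knockout and control cells already known. That difference is therefore given for each gene as a description, without its p-value. Counts of calls among the 10 are given as description too, and nothing is supported with either. All 10 were found in the table by Ensembl identifier, and all 10 had enough counts to enter the fit across 11990 genes.

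S100 proteins are small calcium sensors that pair up and, on binding calcium, attach to other proteins of the cytoskeleton and membrane. Annexins bind membrane phospholipids when calcium rises and act in vesicle traffic, membrane repair and resolution of inflammation; S100a10 and Anxa2 form a complex under the plasma membrane, and S100a11 is a partner of Anxa1. Galectins bind beta-galactoside sugars on surface glycoproteins and, once outside the cell, alter T cell adhesion and survival. In T cells many of these genes, though not each of them, are low in naive and higher in activated and memory cells, including the effector Treg found in tissues.

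The cells were sorted by the yellow fluorescent protein (YFP) that marks Foxp3-driven Cre, taken from the spleens and lymph nodes of C57BL/6 females. Every mouse was Foxp3Yfp-Cre/+. Control mice were Tfamfl/+, so control Treg with Cre also lose a Tfam copy, and knockout (KO) mice were Tfamfl/fl. Foxp3 lies on the X chromosome, so females with a single Cre allele also keep Treg that never express Cre, in both groups. TFAM packages mitochondrial DNA and is needed for its transcription. Each library pooled cells of 2 to 3 mice, and there were 3 control and 3 KO RNA libraries; the 4 ATAC-seq samples of the series were not analysed here.

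The libraries held between 19087757 and 27490253 gene counts. Levels below are CPM, counts scaled to the library total with edgeR's TMM factors, and a count of 3 equals 0.11 to 0.157 CPM. Tfam, the targeted gene, lay between 25.9 and 42.4 CPM in control and between 14.4 and 16.5 CPM in KO, so no library went against its label. This is a count over the whole gene, and reads of the deleted part were not counted apart. The 6 Treg markers Foxp3, Il2ra, Ctla4, Ikzf2, Cd3e and Cd4 summed to between 2265 and 2556 CPM in control and between 2292 and 2492 CPM in KO. The sorted cells still held macrophage RNA: the 10 markers of that list, among them Vcam1, Csf1r and C1qa, were all detected and summed to 400.3, 861 and 457 CPM across control replicates 1 to 3 and to 514, 1233 and 444 CPM across those of KO. Both libraries numbered 2 thus stood above the others of their group. Of 10 neutrophil and monocyte markers 7 stayed under 1 CPM in every library, the neutrophil genes S100a8 and S100a9 among them with 3 and 13 counts in all 6 libraries together. The others were Lyz2 (14.1 to 28.7 CPM), Cd14 (3.00 to 15.1 CPM) and Csf3r (0.577 to 2.97 CPM), each highest in KO replicate 2. That list summed to between 18.8 and 35.9 CPM in control and between 22.2 and 47.0 CPM in KO. In bulk RNA, fewer cells that express a gene and less of its RNA per cell cannot be told apart.

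The RefSeq promoter table (GRCm38.p6) held windows for 8 of the 10 genes. The 250 bases before the gene start used in that source were searched on both strands for fixed motifs. The windows of S100a1 and S100a13 share 104 bases, so not both can lie before the annotated spans of these genes. The windows of 3 S100 genes and of Anxa2 are shown because these genes had the largest differences among those of the 10 that averaged above 10 CPM in control. Capitals mark the TATA box letters TATAAA in S100a4 (chr3:90603520-90603769, plus strand), the RUNX letters TGTGGT or their reverse complement in S100a6 (chr3:90612644-90612893, plus strand), the AP-1 letters TGANTCA in S100a11 (chr3:93520246-93520495, plus strand), and both AP-1 and TATA letters in Anxa2 (chr9:69453433-69453682, plus strand).
S100a4: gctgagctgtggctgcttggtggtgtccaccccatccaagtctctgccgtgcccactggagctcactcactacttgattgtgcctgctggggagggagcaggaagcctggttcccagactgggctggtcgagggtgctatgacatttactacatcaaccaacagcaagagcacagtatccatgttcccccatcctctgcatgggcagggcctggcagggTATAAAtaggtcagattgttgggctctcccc
S100a6: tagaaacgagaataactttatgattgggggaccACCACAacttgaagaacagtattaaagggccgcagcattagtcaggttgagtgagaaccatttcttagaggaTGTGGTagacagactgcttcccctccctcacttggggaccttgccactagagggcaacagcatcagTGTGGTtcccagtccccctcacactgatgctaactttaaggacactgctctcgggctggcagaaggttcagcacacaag
S100a11: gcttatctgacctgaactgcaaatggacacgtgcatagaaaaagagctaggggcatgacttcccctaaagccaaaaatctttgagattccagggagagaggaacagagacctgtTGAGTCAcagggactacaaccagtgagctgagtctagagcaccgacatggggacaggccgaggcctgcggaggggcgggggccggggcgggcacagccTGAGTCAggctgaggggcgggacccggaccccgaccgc
Anxa2: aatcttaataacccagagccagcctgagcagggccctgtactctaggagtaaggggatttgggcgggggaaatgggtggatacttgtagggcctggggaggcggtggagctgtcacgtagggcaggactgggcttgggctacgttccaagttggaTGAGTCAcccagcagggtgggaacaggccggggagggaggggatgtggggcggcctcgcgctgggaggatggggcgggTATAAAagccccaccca

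AP-1 is the Fos and Jun factor complex induced by T cell receptor signals. Its letters were found in 2 of the 8 windows, those of S100a11 (at -136 to -130 and -38 to -32 from the gene start) and Anxa2 (-95 to -89), and in 6.75% of all 32851 windows of this length. TATA letters lay in 3 of 8, S100a4 (-31 to -26), Anxa2 (-17 to -12) and Anxa1 (-32 to -27), against 12.4% of all windows. The RUNX letters were found only in S100a6 among the 8, 3 times, against 14.05% of all windows. The KLF letters CCACCC lay in 3 windows (S100a4, S100a13 and Anxa2; 28.1% of all) and the SP letters GGGCGG in 3 (S100a11, Anxa2 and Lgals3; 32.7% of all). The STAT letters TTCNNNGAA lay in 0 of 8 (7.02% of all). None of these motifs was shared by all 8, and a match of letters is not a bound site.

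S100a4, a calcium sensor that binds non-muscle myosin and marks motile and memory T cells, had the largest difference of the 10. Control replicates 1 to 3 stood at 30.8, 49.3 and 25.3 CPM, and KO replicates 1 to 3, in the same order as for every gene below, at 4.94, 8.13 and 3.52 CPM. The groups did not overlap, and the highest KO library lay well under the lowest control library. The mean was 35.1 ± 12.6 CPM in control and 5.53 ± 2.36 CPM in KO (SD, n = 3 each), a fitted 6.32-fold difference (log2 fold change -2.66 ± 0.33, SE). Within same-numbered pairs the log2 difference was -2.64, -2.60 and -2.85, a narrower range than that of the libraries within either group.

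S100a6, also called calcyclin, lies next to S100a4 on chromosome 3 with S100a5 between them. Its level was 23.9, 39.1 and 18.2 CPM in control and 5.15, 6.28 and 3.52 CPM in KO, again without overlap, and the fitted difference was 5.39-fold (-2.43 ± 0.31). S100a5 held 2 counts over all 6 libraries. The CPM ratio of S100a4 to S100a6 was 1.29, 1.26 and 1.39 in control and 0.959, 1.29 and 1.00 in KO, not scaled for length, and both genes put the 6 libraries in the same order.

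S100a11, a partner of annexins in membrane repair, stood at 26.2, 37.8 and 25.0 CPM in control and at 12.1, 12.5 and 10.02 CPM in KO, without overlap. Its fitted difference was 2.57-fold (-1.36 ± 0.17). S100a10, known as p11, has lost calcium binding and stays in the form that grips Anxa2. Its level was 183, 239 and 198 CPM in control and 133, 146 and 125 CPM in KO. The lowest control library lay above the highest KO library, with a fitted difference of 1.54-fold (-0.62 ± 0.11).

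S100a13, which takes part in the release of proteins that lack a signal peptide, stood at 42.8, 48.3 and 52.7 CPM in control and at 36.8, 41.4 and 37.6 CPM in KO. The groups did not overlap, but control replicate 1 lay close to KO replicate 2, and the fitted difference was 1.24-fold (-0.31 ± 0.09). S100a1, best known from muscle, was barely detected, with 18, 18 and 27 counts in control and 10, 13 and 30 counts in KO, and its groups overlapped (log2 fold change 0.05 ± 0.47). Its sign turned with the fit: the log2 fold change was -0.67 without KO replicate 3, -0.06 without control replicate 1, -0.17 with limma-voom and -0.09 with the replicate number as a block in DESeq2. The 2 genes run in opposite directions from a shared start region, where their annotated spans (GRCm38.p6) overlap by 98 bases. The strand setting of the counting is not given, so reads in that stretch cannot be assigned with certainty.

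**Figure D1:**
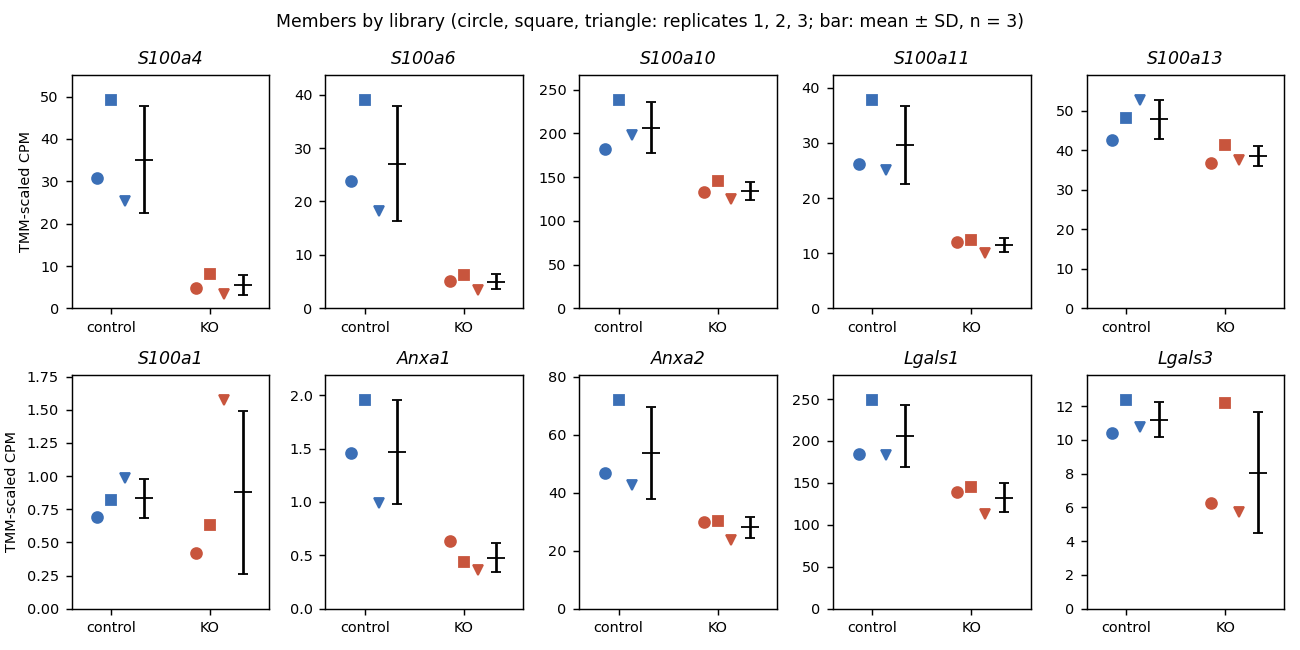
Level of each of the 10 genes (TMM-scaled CPM, linear axis from 0) in the control (blue) and KO (red) libraries; circles, squares and triangles are replicates 1, 2 and 3, and the bar is the mean ± SD (n = 3). The groups are apart for all genes but S100a1 and Lgals3, and in S100a4 the KO libraries lie between 3.52 and 8.13 CPM against 25.3 to 49.3 CPM in control.

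Anxa2, which links phospholipid membranes to actin and is the partner of S100a10, stood at 46.8, 72.1 and 42.7 CPM in control and at 30.1, 30.4 and 23.8 CPM in KO. The groups did not overlap. The mean was 53.8 ± 15.9 CPM in control and 28.1 ± 3.70 CPM in KO (SD, n = 3 each), a fitted 1.91-fold difference (-0.93 ± 0.19). Anxa1, a glucocorticoid-induced protein that acts through formyl peptide receptors to limit inflammation, was rare, with 38, 43 and 27 counts in control and 15, 9 and 7 counts in KO. Its fitted difference of 2.98-fold (-1.58 ± 0.36) was larger than that of Anxa2, but it rests on 108 control and 31 KO counts.

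Lgals1, whose product galectin-1 is secreted by Treg and contributes to suppression, stood at 185, 249 and 184 CPM in control and at 139.5, 145 and 113 CPM in KO. The groups did not overlap, and the fitted difference was 1.55-fold (-0.64 ± 0.14). The annotated span of the lncRNA gene Gm30368 overlaps the start of Lgals1, so reads there are uncertain too. Lgals3, the galectin that forms pentamers and is also abundant in macrophages, stood at 10.4, 12.4 and 10.8 CPM in control and at 6.25, 12.2 and 5.72 CPM in KO. Its groups overlapped because KO replicate 2, the library with the most macrophage RNA, stood at the control level. Its fitted difference was 1.39-fold (-0.47 ± 0.26), and without both libraries numbered 2 it was -0.82 on the log2 scale; the part of macrophage RNA in these values was not tested.

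Counted in the fit across all genes, 4 of the 10 were called lower in KO (S100a4, S100a6, S100a10 and S100a11) and 0 higher, where edgeR's quasi-likelihood test called 1.39% of all tested genes lower and 0.1% higher. Of the 10, 8 had all KO libraries below all control libraries, as did 10.4% of all tested genes. The median log2 fold change of the 10 was -0.79, against -0.005 over all tested genes. Because the genes were chosen on this contrast, these counts describe the choice and add no support. With the replicate number as a block, edgeR called 8 lower (4.39% of all genes), the added ones being S100a13, Anxa1, Anxa2 and Lgals1, while DESeq2 with the same block called 6 (2.55% of all genes), without S100a13 and Anxa1. The same 6 were called by DESeq2 without the block (2.25% of all genes) and by edgeR without the low-count filter (1.22%).

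Most of the 10 also ranked the libraries of a group alike. Control replicate 2 was the highest control library for 8 of the 10, and KO replicate 2 the highest KO library for 8 of the 10. KO replicate 3 was the lowest KO library for 8. The share of all tested genes with these orders is not given here, so they are not shown to be particular to the 10. Across all tested genes both libraries numbered 2 also deviated together (correlation 0.584). The summed level of the 10 was 550.4, 749 and 559 CPM in control and 369, 403 and 323 CPM in KO. The libraries numbered 2, high in these genes, were also the ones highest in macrophage markers. KO replicate 2 held more macrophage marker RNA than any control library, and the part of macrophage RNA in the levels of the 10 was not tested. Without both libraries numbered 2, when 3 of the 10 were called lower (S100a4, S100a6 and S100a11; 0.446% of all genes), the log2 fold change was -2.72 for S100a4, -2.27 for S100a6, -1.21 for S100a11, -0.73 for Anxa2 and -0.55 for Lgals1.

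**Figure D2:**
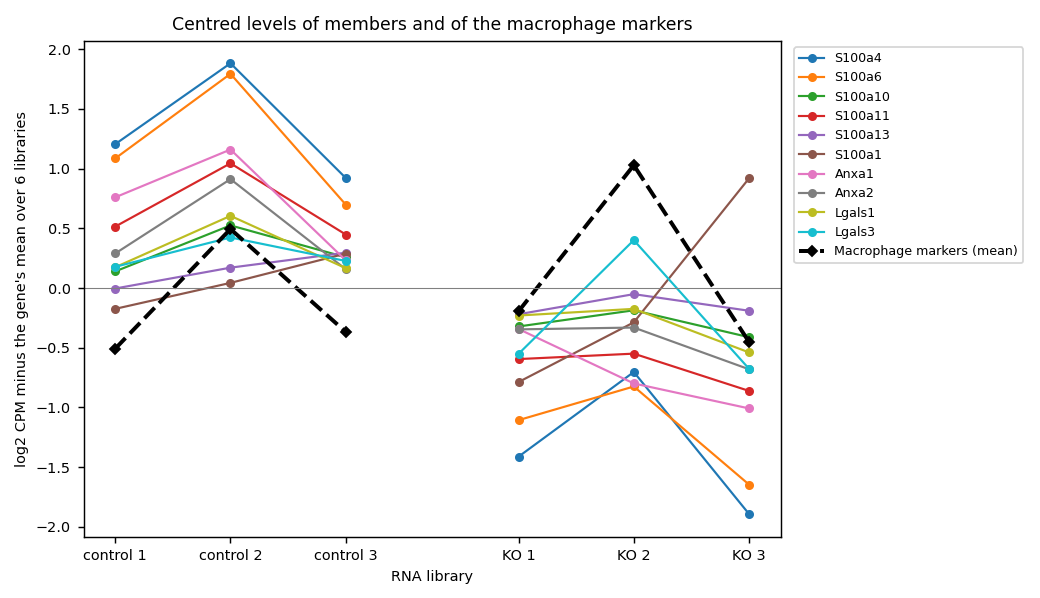
Log2 CPM of each gene minus its own mean over the 6 libraries (y axis), by library (x axis), with the mean over the 10 macrophage markers as a dashed black line. S100a4 and S100a6 span the widest range, the curves peak in control replicate 2 for 8 of the 10 genes, and the macrophage line peaks in KO replicate 2, where S100a4 stands at 8.13 CPM.

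Leaving out a single library kept the sign of the difference for 9 of the 10 genes, S100a1 being the exception. The log2 fold change of S100a4 then ran from -3.03 to -2.34, that of S100a6 from -2.65 to -2.07 and that of S100a11 from -1.47 to -1.15. The ranges were -1.84 to -1.32 for Anxa1, -1.08 to -0.67 for Anxa2, -0.71 to -0.48 for Lgals1 and -0.69 to -0.50 for S100a10. The number of the 10 called lower was 0 without KO replicate 1, when 0.214% of all genes were called lower. It was 3 without control replicate 2 (0.675% of all genes), KO replicate 2 (0.501%) or KO replicate 3 (0.516%), and each time S100a10 dropped out. It was 4 without control replicate 1 (0.693%) and 4 without control replicate 3 (1.37%), where Anxa2 took the place of S100a10.

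**Figure D3:**
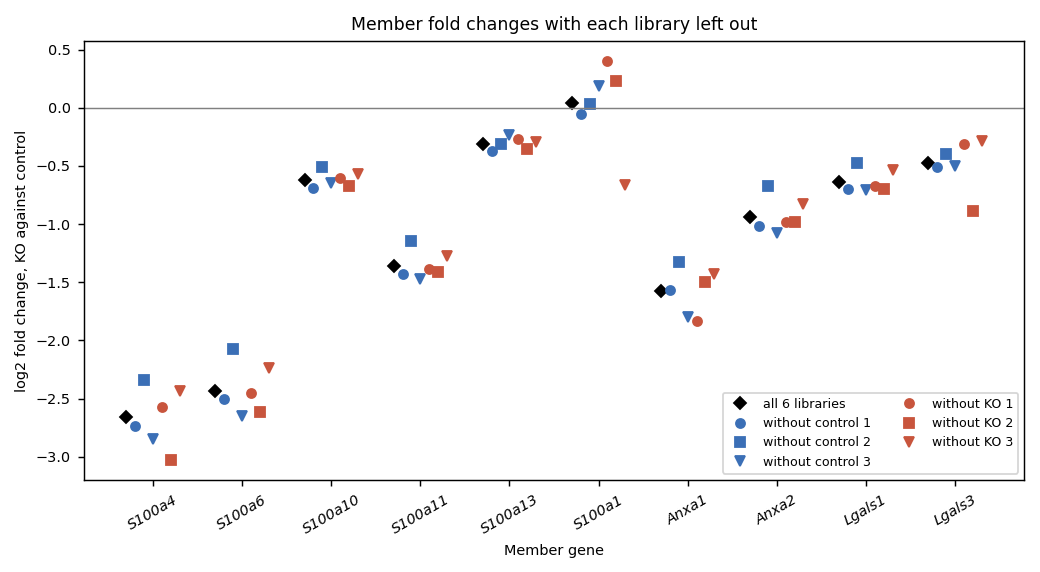
Log2 fold change of KO against control (y axis) for each gene (x axis) with all 6 libraries (black diamonds) and with each control (blue) or KO (red) library left out. S100a4 stays between -3.03 and -2.34, while S100a1 reaches -0.67 without KO replicate 3, against 0.05 with all libraries.

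The remaining genes of the 3 families were those left when the 10 were chosen, so their lack of calls is partly fixed by that choice. Of 28 listed, 26 matched an identifier and 12 had enough counts to be tested. By edgeR 0 of the 12 were called lower, 1 was called higher and 11 did not pass, with a median log2 fold change of -0.11. Of the 12, 5 had all KO libraries below all control libraries, as did 10.4% of all tested genes. Another 2 had all KO libraries above all control libraries, as did 1035 of the 11990 tested genes. At an unadjusted p under 0.05 edgeR had 3 lower (Anxa6, Anxa4 and Lgalsl), while DESeq2 and limma-voom called 0 lower after adjustment. Lgalsl, with 193 control and 108 KO counts, had a log2 fold change of -0.59 ± 0.24 without overlap (adjusted p = 0.364 by edgeR). The 10 S100 genes on that list were at or near 0: none was tested, and the most any of them held was 20 counts over all libraries. The list lacked S100a2, which held 15 counts, and S100a7l2, which held 0, and neither was tested. Lgals4, a galectin best known from gut epithelium, was the gene called higher. It stood at 14.9, 13.5 and 14.1 CPM in control and at 19.2, 18.8 and 19.5 CPM in KO. No KO library overlapped the control libraries (log2 fold change 0.44 ± 0.08, adjusted p = 0.048 by edgeR). This call was lost in every fit with 1 library left out (adjusted p between 0.0777 without control replicate 1 and 0.214 without KO replicate 1), with limma-voom (0.0564) and without the low-count filter (0.0544); in DESeq2 it held at an adjusted p of 0.0178 and was lost with the block (0.052), while edgeR with the block gave 0.0122.

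Among the 7 other annexins tested, 0 were called by edgeR, DESeq2 or limma-voom, and 2 had an unadjusted p under 0.05 in edgeR (Anxa6 and Anxa4). Anxa6, the annexin with the most counts in these cells, stood at 869, 940.2 and 932 CPM in control and at 826, 823 and 775 CPM in KO. The groups did not overlap, but the difference was small (log2 fold change -0.18 ± 0.07, adjusted p = 0.330 by edgeR). Anxa11 gave -0.02 ± 0.07 on the same scale (adjusted p = 0.952 by edgeR). Of the galectins, Lgals9, a ligand of the receptor Tim-3, stood at 231, 228 and 221 CPM in control and at 203, 219 and 199 CPM in KO (-0.13 ± 0.06, adjusted p = 0.445 by edgeR). Lgals8 stood at 0.03 ± 0.07 on the log2 scale (adjusted p = 0.902 by edgeR).

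Partners of the 10 proteins were taken from a list of 15 binding proteins, receptors and sugar carriers, of which 14 were tested. By edgeR 0 passed in either direction, 1 lower and 1 higher at an unadjusted p under 0.05, and limma-voom also called 0; the median log2 fold change was -0.001. Myh9, the myosin heavy chain that S100a4 binds, gave a log2 fold change of 0.01 ± 0.10 (adjusted p = 0.972 by edgeR). Ptprc, the CD45 phosphatase whose sugars galectin-1 binds, had 0.02 ± 0.07 (adjusted p = 0.943 by edgeR). With the replicate block edgeR called 2 of the 14, named here for that reason after their values were seen. Ahnak, the giant scaffold that the S100a10 and Anxa2 complex binds, was called lower with the block (adjusted p = 0.039); it stood at 896, 983 and 694 CPM in control and at 668, 560 and 661 CPM in KO (-0.45 ± 0.13, adjusted p = 0.197 without the block). Ager, the RAGE receptor that binds several extracellular S100 proteins, was called higher with the block (adjusted p = 0.00304). Control libraries stood at 30.6, 23.3 and 23.9 CPM and KO libraries at 39.0, 32.96 and 41.9 CPM (0.55 ± 0.13, adjusted p = 0.104 without the block). DESeq2 without the block called both, and with the block Ager alone.

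**Figure D4:**
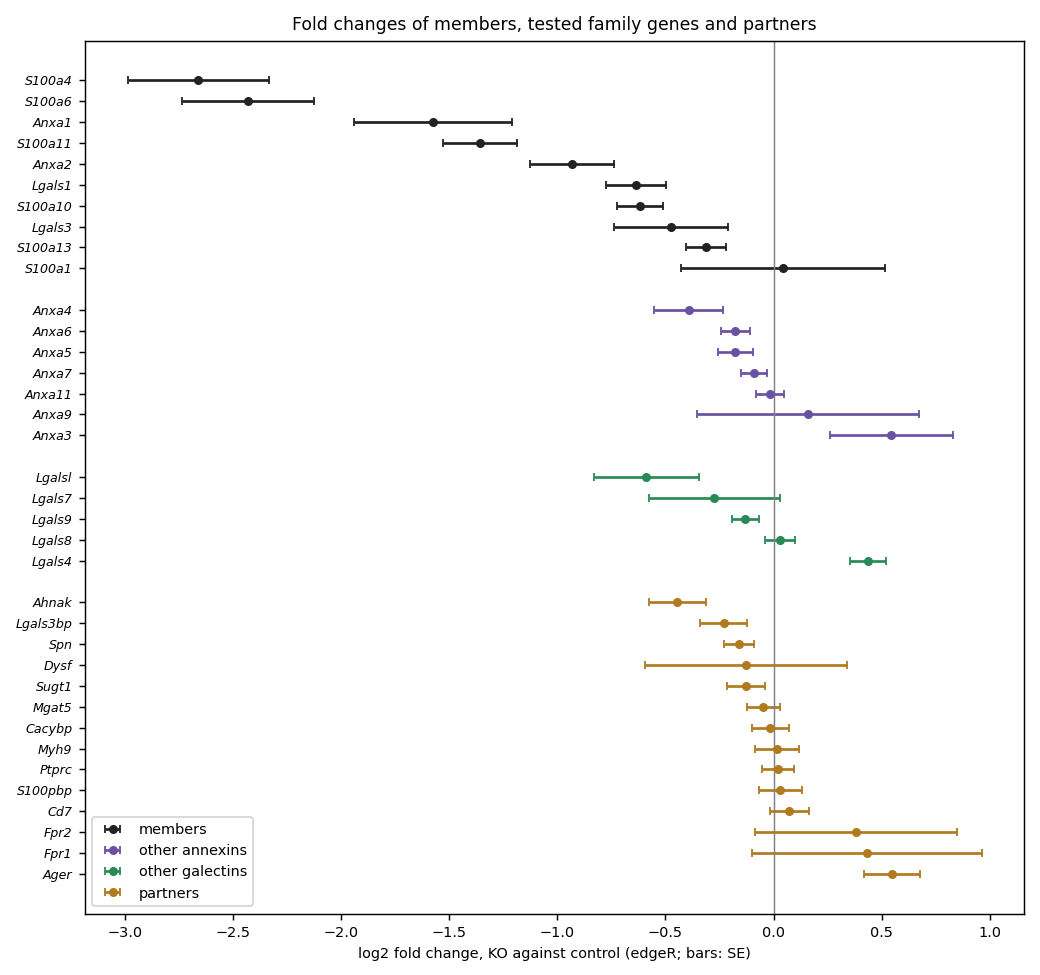
Log2 fold change of KO against control (x axis, edgeR, bars are SE) for the 10 genes (black), the tested other annexins (purple) and galectins (green) and the tested partners (brown). The largest differences among the 10 are those of S100a4 (-2.66) and S100a6 (-2.43), while Lgals4 lies at 0.44.

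The 6 S100 genes sit in a gene-rich stretch of chromosome 3 that also holds the genes of the skin's outer layer. In the RefSeq gene order (GRCm38.p6) 70 protein-coding genes lie from S100a1 to S100a10, and with 10 genes on each side the stretch had 82 genes of the count table besides the 6. Of these 82, 22 had a count and 10 were tested, and all 10 tested were flanking genes such as Chtop and Ilf2. Of the 10, 0 were called by edgeR, DESeq2 or limma-voom in either direction and 1 (Slc27a3, higher) had an unadjusted p under 0.05 in edgeR, with log2 fold changes between -0.16 (Snapin) and 0.38 (Slc27a3). Between the outermost S100 genes the 6 were thus the only genes with enough counts to test.

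Likeness of profile was measured as the root mean square difference of centred log2 CPM over the 6 libraries, which gives a description and no test. The KO against control difference is part of this measure, so distances among the 10 partly restate the contrast on which they were chosen. Of all pairs among the 10, S100a10 and Lgals1 were nearest (0.082 on the log2 scale), and S100a4 and S100a1 farthest (1.54). For S100a4 the nearest of all tested genes were Frmd5 (0.198), its family neighbour S100a6 (0.200) and Ttbk1 (0.232). Frmd5 averaged 1.18 CPM in control and 0.171 CPM in KO, and Ttbk1 2.27 and 0.325 CPM. In KO replicate 3, where a count of 3 equals 0.157 CPM, Frmd5 stood at 0.052 CPM and Ttbk1 at 0.157 CPM. Their KO values are thus limited by counting error, and so is their rank beside S100a6. For Anxa2 the nearest were Hgfac (0.052), Cpd (0.071) and H1f0 (0.101), a linker histone gene of non-dividing cells. Hgfac averaged only 2.01 CPM in control and 1.05 CPM in KO, so its rank is limited by counting error too. For Lgals1 the nearest were Gstt2 (0.023), Smco4 (0.041) and Cxcr5 (0.048), the follicular homing receptor. Cxcr5 averaged 19.1 CPM in control and 11.9 CPM in KO.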

How the data were processed

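Poly(A) RNA from sorted Treg was sequenced, and the authors deposited read counts per Ensembl gene as HTSeq counts, per the labels, with 1 column per RNA library (3 control, 3 KO) and no normalization. The submitters' processing notes also name HISAT2 and the builds mm10 and mm9; annotation and strand setting: not given in the sources used here. Of 22553 identifiers, 22522 matched a symbol.

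Genes were kept by filterByExpr (minimum count 10, minimum total 15), libraries were scaled with TMM, and KO was compared with control by edgeR 4.0.16's quasi-likelihood test in R 4.3.3, with Benjamini-Hochberg adjustment over all 11990 tested genes and calls at an adjusted p under 0.05. SE was derived from the F statistic. Alternatives used DESeq2 1.42.0, limma-voom (limma 3.58.1), DESeq2 size factors in edgeR, no low-count filter, a replicate block, and fewer libraries. Profiles used log2 CPM with a prior count of 2. Transcript lengths were not used here, so CPM and counts of different genes are not scaled for length.

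The 10 genes, the family and partner lists and the tests were chosen with earlier results of these data known. The named genes were the 10, Tfam, called family and partner genes, the 2 most counted tested genes of each list, and the 3 nearest profiles of S100a4, Anxa2 and Lgals1, leaving out unnamed models. Motif letters were listed with the tests, but the promoter windows were shortened to the bases before the gene start, and the motif capitalised in each printed window was picked, after matches in the full windows had been seen. Markers of 9 cell types were listed; beside those in the report, the B cell list (6 genes, mostly Ighm) summed to 549 to 578 CPM in control and 398 to 432 CPM in KO, the dendritic list to 3.65 to 10.2 and 4.20 to 12.9 CPM, CD8 T to 14.4 to 16.3 and 13.5 to 19.04 CPM, NK to at most 0.211 CPM, erythroid to 4.61 to 7.38 and 5.45 to 11.7 CPM, and endothelial and stromal (mostly Pecam1) to 237 to 257 and 230.1 to 277 CPM.

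Same-numbered control and KO libraries deviated together (correlation of deviations from the group means across genes 0.30, 0.584 and 0.537 for numbers 1 to 3). The numbers may thus pair the libraries, a reading from the data that the labels do not state. The main fit, with its SE and calls, did not use the numbers, and among the fits only those with the replicate block did. With the block in edgeR the SE of S100a4 was 0.094, against 0.33 in the main fit. Within a group every 2 libraries differed beyond counting noise (chi-square per degree of freedom 8.75 to 27.4), so each was counted once. The labels do not say whether pools are independent batches. The p-values thus weigh the group difference against the spread between these libraries, which may be partly technical. Floors cover counting error only.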

Additional observations from a re-analysis of the deposited data

How the results depend on the processing

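Over all genes, 167 were called lower and 12 higher. The numbers were 264 and 76 with DESeq2, 136 and 3 with limma-voom, 526 and 236 with the replicate block in edgeR, and 300 and 138 with the replicate block in DESeq2. With 1 library left out they ran from 26 to 166 lower and from 0 to 10 higher, the lowest without KO replicate 1, and without both libraries numbered 2 they were 54 and 0. Of the 10 genes, 4 were called lower; edgeR with the replicate block called 8, and the number was 6 with the replicate block in DESeq2, with DESeq2 alone or with no low-count filter, 4 with limma-voom, and 0 to 4 with 1 library left out (0 without KO replicate 1, 3 without both libraries numbered 2, where 0.446% of all genes were called lower). Among the other family genes 1 was called higher (Lgals4), and 0 with limma-voom, with no low-count filter, with the replicate block in DESeq2, with any 1 library left out (0 to 0) and without both libraries numbered 2. Among partner genes 0 were called, against 1 lower and 1 higher with DESeq2 and with the replicate block in edgeR, 1 higher with the replicate block in DESeq2, and 0 to 1 lower with 1 library left out (Ahnak without control replicate 3). Tfam lost its call when control replicate 2, any KO library or both libraries numbered 2 were left out (adjusted p between 0.0551 and 0.123), with log2 fold changes between -1.14 and -1.03. Fits with fewer libraries have fewer degrees of freedom; other causes of these shifts were not tested. DESeq2 size factors in edgeR changed no call among the listed genes. Genes near or under 1 CPM, such as S100a1 and Anxa1, are limited by counting error.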
